A study of Mus musculus with 2 samples.

Results

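The genes described here make, and receive the signals of, the lysophospholipids lysophosphatidic acid (LPA) and sphingosine-1-phosphate (S1P) in the optic nerve of the mouse. They were chosen by symbol as a fixed list of 10 genes: the LPA-producing enzyme autotaxin (Enpp2), the LPA receptors Lpar1, Lpar4 and Lpar6, the S1P receptors S1pr1, S1pr2, S1pr3 and S1pr5, and the sphingosine kinases Sphk1 and Sphk2. All 10 had exactly 1 entry among the 23950 symbols of the deposited tables, and all 10 passed the minimum level for comparison, as did 14154 genes in all. RNA-seq was done on whole optic nerve at postnatal day 12, on a mixed strain background, with 1 library per group. The control group was Hdac3 f/+; Olig1-cre and the Hdac3 cKO group was Hdac3 f/f; Olig1-cre. Both groups therefore carry the Cre recombinase, driven from the Olig1 gene of the oligodendrocyte lineage, and the control group also carries 1 allele that Cre can delete. How many animals went into a library is not known from the sources used here.

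LPA and S1P are small signalling lipids that act on G protein-coupled receptors of the cell surface. Autotaxin is a secreted enzyme that cuts the choline headgroup from lysophosphatidylcholine to release LPA, and the sphingosine kinases add phosphate to sphingosine inside the cell to make S1P. In the nervous system Enpp2, Lpar1 and S1pr5 are known from oligodendrocytes, S1pr1 and S1pr3 are known from astrocytes, and S1pr1 is also a main receptor of endothelium.

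Levels are in FPKM, a fragment count scaled by transcript length and library total, so that genes can be compared within a library. Each value was deposited with an interval for its estimation error, which does not hold the variation between animals. With 1 library per group no test was possible, and every difference below describes these libraries and not the genotypes. A difference is log2 of cKO FPKM plus 1 over control FPKM plus 1. Genes are counted as lower or higher where it reaches 2-fold with deposited intervals that do not overlap. Hdac3 itself had 36.4 FPKM in control and 38.0 FPKM in cKO, a log2 difference of 0.06. The deleted exons cannot be seen in a value for the whole gene, so the genotype labels were not checked by it, and the libraries are called control and cKO by their labels only.

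In the cKO library, 2 of the 10 genes were lower, Enpp2 and S1pr5, and 1 was higher, Sphk1. Over all 14154 genes tested, 4.51% were lower and 4.73% were higher by the same rule, with a median log2 difference of 0.12. The other 7 genes did not reach 2-fold. Among these 7, the intervals of 5 (Lpar1, Lpar4, S1pr1, S1pr2 and S1pr3) did not overlap between the libraries, and those of Lpar6 and Sphk2 did. Separate intervals were common, at 60.9% of all genes tested.

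The start regions of 3 S1P receptor genes are shown because S1pr5 and S1pr2 lie on the same chromosome with differences of opposite sign, and S1pr3 was the S1P receptor with the highest level. The sequences are the 250 bases before the RefSeq start of each gene in build GRCm38.p6, on the gene's own strand. For S1pr5 and S1pr2 a stretch of bases shortly after that start was found somewhere in a GENCODE M21 transcript of the gene, and for S1pr3 it was not. The match checks the strand and not that a transcript begins there, so all 3 starts rest on RefSeq. Capitals mark each match to the E-box CANNTG, the general motif of bHLH factors such as OLIG1 and OLIG2.
S1pr5, chr9:21248444-21248693, minus strand: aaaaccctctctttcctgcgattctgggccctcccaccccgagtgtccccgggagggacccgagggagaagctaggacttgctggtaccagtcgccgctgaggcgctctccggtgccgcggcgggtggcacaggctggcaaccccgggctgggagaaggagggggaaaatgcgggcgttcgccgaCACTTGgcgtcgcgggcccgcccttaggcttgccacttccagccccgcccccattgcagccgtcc
S1pr2, chr9:20976794-20977043, minus strand: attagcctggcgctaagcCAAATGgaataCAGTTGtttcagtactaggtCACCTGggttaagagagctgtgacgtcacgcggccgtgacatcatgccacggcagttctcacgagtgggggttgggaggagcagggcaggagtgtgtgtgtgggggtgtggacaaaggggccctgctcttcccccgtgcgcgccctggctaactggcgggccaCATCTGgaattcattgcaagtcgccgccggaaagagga
S1pr3, chr13:51408368-51408617, plus strand: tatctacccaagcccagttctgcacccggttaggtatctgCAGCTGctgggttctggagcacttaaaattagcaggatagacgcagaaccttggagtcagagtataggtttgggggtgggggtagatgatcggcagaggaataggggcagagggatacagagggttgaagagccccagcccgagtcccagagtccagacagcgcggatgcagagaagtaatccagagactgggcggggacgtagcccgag

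The S1pr5 window held 1 E-box, the S1pr2 window 4 and the S1pr3 window 1, and 66.2% of all 32851 RefSeq start windows of this length held at least 1. For the SOX motif, searched as ACAAAG or ACAATG on both strands, the S1pr2 window held 1 match and those of S1pr5 and S1pr3 held 0, while 25.2% of all windows held at least 1. The GC box GGGCGG, a motif of Sp1-type factors, had 2 matches before S1pr5, 1 before S1pr3 and 0 before S1pr2, and occurred in 32.7% of all windows. The S1pr5 window was 69.2% G and C, the S1pr2 window 59.2% and the S1pr3 window 56.4%, against a median of 52.4% over all windows. RefSeq start windows were found for 8 of the 10 genes, and matches are a description of letters, not of bound sites.

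Enpp2 (chr15:54670234-54751701, mm9) had the highest level of the 10 genes in the control library, at 291 FPKM with an interval of 290.8 to 299.9. In the cKO library it was at 67.0 FPKM, with an interval of 66.5 to 69.1. The control value was 4.35 times the cKO value, a log2 difference of -2.10, and the interval bounds give -2.16 to -2.06. Enpp2 thus went from place 197 to place 1142 among the 14154 genes ordered by level, and 134 genes had a lower difference. Its difference was between -2.43 and -2.04 under every pseudocount and scaling tried.

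Enpp2 is also known for high levels in choroid plexus and retinal pigment epithelium, so the markers of those tissues were read beside it. Of 6 such markers, Rpe65 (0.0221 FPKM in control, 0.00698 in cKO), Ttr (0.107 and 0.574) and Folr1 (0.131 and 0.135) were below 1 FPKM in both libraries. The 3 markers above that level differed from each other. Rlbp1, listed here as a marker of pigment epithelium, was at 10.6 FPKM in control and 5.75 FPKM in cKO (log2 -0.79). Its intervals were separate and its sign was that of Enpp2, while Rpe65, of the same epithelium, was below 1 FPKM in both libraries. Whether the Rlbp1 level came from pigment epithelium was not tested. Kl, of choroid plexus, was counted higher, at 2.09 and 5.93 FPKM, and Tyr, of pigment cells, was at 2.20 and 2.54. Their summed level was 14.9 and 14.2 FPKM, a sum in which the opposite differences of Rlbp1 and Kl nearly cancel. The part of such tissue in the Enpp2 difference was not tested.

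The 3 LPA receptors among the 10 genes, Lpar1, Lpar4 and Lpar6, did not reach 2-fold. Lpar1 (chr4:58448124-58566363), which couples to several G protein classes and is the main LPA receptor of myelinating glia, was at 68.8 FPKM in control, with an interval of 66.8 to 71.6, and 58.5 in cKO, with an interval of 57.8 to 60.5. The intervals did not overlap, and the log2 difference was -0.23. Lpar6 (chr14:73637698-73640165), a receptor of the P2Y-related branch, was at 5.77 FPKM in control against 5.62 in cKO (log2 -0.03), with overlapping intervals of 4.84 to 6.32 and 4.91 to 5.76. Lpar4 (chrX:104115964-104129238), of the same branch, had the lowest level of the 10 genes, at 1.17 FPKM in control against 1.66 in cKO (log2 0.29), with intervals of 0.949 to 1.38 and 1.47 to 1.83.

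Within each library, which needs no scaling between them, Lpar1 made up 89.3% of the summed FPKM of the 6 LPA receptor genes in control and 85.6% in cKO. Lpar6 made up 7.50% and 8.23%. The remaining receptors were low. Lpar5 was at 0.231 FPKM in control and 1.05 FPKM in cKO, a ratio of 4.55, and Lpar2 was at 0.488 and 1.12 FPKM, a ratio of 2.29, both with separate intervals. On the log2(FPKM + 1) scale, which understates differences of low genes, these were 0.74 and 0.51 and were not counted. Lpar3 was at 0.593 and 0.385 FPKM, below the minimum level. The level of Enpp2 was 4.23 times that of Lpar1 in the control library and 1.14 times in the cKO library.

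**Figure D1:**
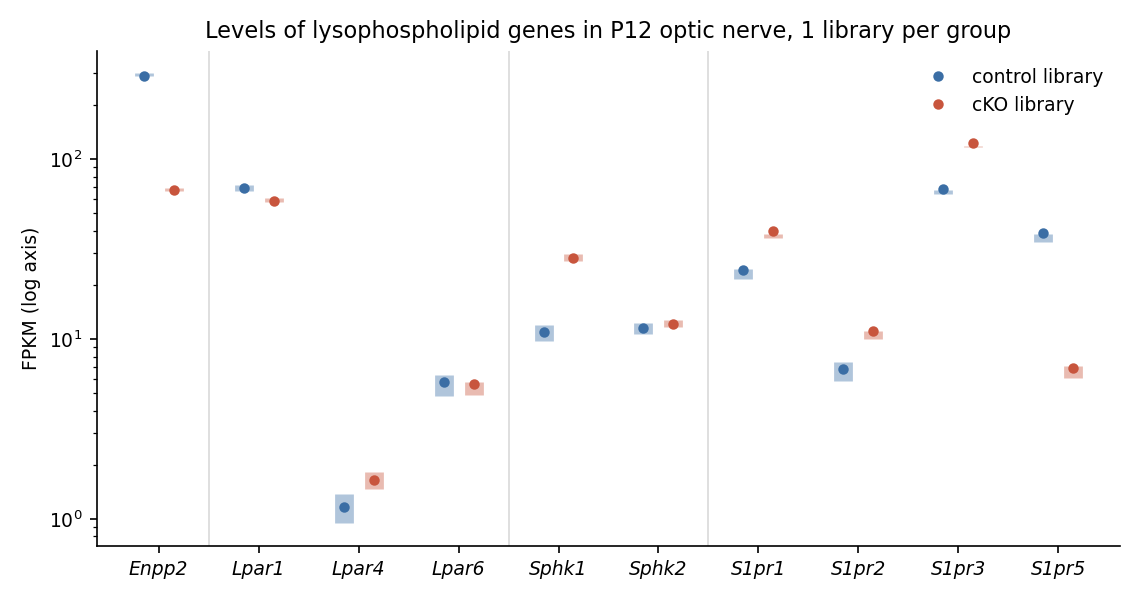
FPKM (log axis) of the 10 genes in the control (blue) and cKO (red) library, with points for the deposited values and shaded bars for the deposited intervals, 1 library per group. Enpp2 drops from 291 to 67.0 FPKM and S1pr5 from 38.8 to 6.90, while Sphk1 goes from 10.9 to 28.3.

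Sphk1 and Sphk2 encode the kinases that make S1P, SPHK1 mainly in the cytosol and SPHK2 also in the nucleus. Sphk1 (chr11:116393225-116397989) was at 10.9 FPKM in control, with an interval of 9.77 to 12.0, and 28.3 in cKO, with an interval of 27.3 to 29.6. The cKO value was 2.60 times the control value, a log2 difference of 1.30, and the interval bounds give 1.12 to 1.51. Of the 14154 genes, 360 had a higher difference. After scaling the libraries to the same sum of FPKM its log2 difference was 0.98, just short of 2-fold. Sphk2 (chr7:52964833-52973372) was at 11.5 FPKM in control against 12.1 in cKO (log2 0.07), with overlapping intervals of 10.7 to 12.3 and 11.7 to 12.7. The sign of the Sphk2 difference depends on the scaling.

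The kinases were level with each other in the control library, where their intervals overlapped and Sphk1 was at 0.945 times Sphk2. In the cKO library Sphk1 was at 2.33 times Sphk2, with separate intervals. The share of Sphk1 in their summed FPKM was 48.6% in control and 70.0% in cKO.

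The S1P receptors differed in opposite directions. S1pr5 (chr9:21047361-21052887), the S1P receptor known from oligodendrocytes and natural killer cells, was at 38.8 FPKM in control, with an interval of 34.4 to 38.3, and 6.90 in cKO, with an interval of 6.06 to 7.05. The control value was 5.62 times the cKO value, a log2 difference of -2.33, and 100 of the 14154 genes had a lower difference. The difference ranged from -2.62 to -1.88 over the pseudocounts and scalings tried, and S1pr5 was counted lower in each.

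S1pr3 (chr13:51503987-51518166), a receptor of astrocytes and of smooth muscle, was at 68.3 FPKM in control, with an interval of 64.0 to 67.7, and 123 in cKO, with an interval of 116 to 119. The log2 difference was 0.83. S1pr1 (chr3:115413351-115417973), which couples to Gi and keeps endothelial junctions, was at 24.2 FPKM in control, with an interval of 21.7 to 24.5, and 39.7 in cKO, with an interval of 36.4 to 38.3 (log2 0.69). S1pr2 (chr9:20770396-20781237), which couples to G12/13, was at 6.85 FPKM in control, with an interval of 5.88 to 7.49, and 11.1 in cKO, with an interval of 9.96 to 11.1 (log2 0.62). All 3 were between 1.62 and 1.79 times as high in the cKO library, below the 2-fold limit. With a limit of 1.5-fold they were counted higher, as were 16.0% of all genes tested, while 8.85% of all genes were lower at that limit. Their differences stayed above 0 under each scaling, with lowest values of 0.50, 0.37 and 0.32 after scaling to the same sum.

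The make-up of the S1P receptors therefore differed between the libraries in a way that no scaling can alter. S1pr5 made up 28.0% of the summed FPKM of the 5 S1P receptor genes in control and 3.82% in cKO. S1pr3 made up 49.3% and 67.8%, S1pr1 17.5% and 21.9%, and S1pr2 4.95% and 6.14%. S1pr4, a receptor of blood cells, was at 0.375 and 0.569 FPKM and made up 0.271% and 0.315%. The level of S1pr3 was 1.76 times that of S1pr5 in control and 17.8 times in cKO, while S1pr3 over S1pr1 was 2.82 and 3.09. S1pr5 was thus the second receptor of the family in control and the fourth in cKO, below S1pr2. Their summed level was 138 FPKM in control against 181 in cKO.

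**Figure D2:**
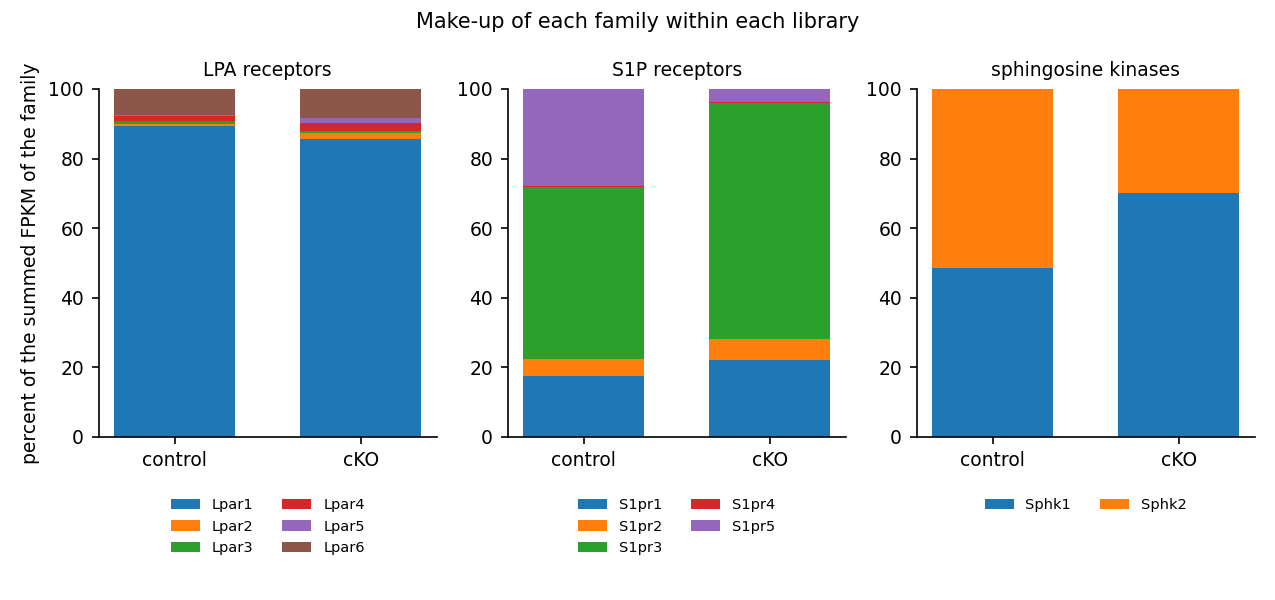
Percent of the summed FPKM of each family taken by each of its genes, in the control and the cKO library (stacked bars, 1 library each). S1pr5 takes 28.0% of the S1P receptors in control and 3.82% in cKO, and Sphk1 48.6% and 70.0% of the sphingosine kinases, while Lpar1 takes 89.3% and 85.6% of the LPA receptors.

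Ordered by level in the control library, the genes ran Enpp2, Lpar1, S1pr3, S1pr5, S1pr1, Sphk2, Sphk1, S1pr2, Lpar6, Lpar4. Neighbours whose intervals overlapped in that order were Lpar1 and S1pr3, Sphk2 and Sphk1, and S1pr2 and Lpar6. In the cKO library the order was S1pr3, Enpp2, Lpar1, S1pr1, Sphk1, Sphk2, S1pr2, S1pr5, Lpar6, Lpar4, and all neighbouring intervals were separate. Of the 20 values of these genes, 5 lay outside their own deposited interval, those of S1pr3 in both libraries, S1pr5 in control, and S1pr1 and S1pr2 in cKO. Over all genes tested this held for 15.2% of values in the control library and 32.1% in the cKO library. The bounds thus do not always hold the value they were deposited with, and how far they cover the estimation error is not known.

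The other genes of lysophospholipid metabolism and signalling were taken from 11 lists that also hold the receptors and kinases. Of 84 such genes beyond the 10, 79 had an entry and 64 were tested. Of these 64, 6 were lower and 4 higher, beside 4.51% lower and 4.73% higher over all genes tested. Their median log2 difference was 0.05, beside 0.12 for all genes.

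Among genes that remove or release S1P, Spns2, the S1P exporter of the cell membrane, was lower, at 18.3 FPKM in control against 5.78 in cKO (log2 -1.51). It was 1 of 3 tested genes of its list, and the other two, the lyase Sgpl1 (22.1 and 29.9 FPKM) and the phosphatase Sgpp1 (9.69 and 8.55), did not reach 2-fold. Of 7 lipid phosphate phosphatases, a family with members that dephosphorylate LPA and S1P, 1 was lower, Ppap2c, at 21.4 and 8.70 FPKM (log2 -1.21). Its relatives Ppap2b (55.9 and 96.9 FPKM, log2 0.78) and Ppap2a (16.8 and 34.2 FPKM, log2 0.98) lay on the other side of 0, the latter just short of the limit, and the list median was 0.55. None of 4 ceramidases, which free sphingosine from ceramide, was counted, with a median of 0.25. Acer2 was just short of the limit, at 2.40 and 5.72 FPKM (log2 0.98) with separate intervals. Asah1 was at 29.0 and 38.4 FPKM (log2 0.39) and Acer3 at 4.51 and 4.92 (log2 0.10).

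In the other genes of the ENPP family, to which autotaxin belongs, 2 of 5 were lower and 1 was higher. Enpp6, a choline phosphodiesterase of new oligodendrocytes, was at 98.8 FPKM in control against 15.2 in cKO (log2 -2.62), further from 0 than Enpp2. Enpp4 was at 9.43 and 4.05 FPKM (log2 -1.05). Enpp1, which cuts extracellular nucleotides, was at 10.7 and 36.9 FPKM (log2 1.70), and the list median was -0.01.

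Enzymes of lysophospholipid synthesis held 2 genes that were higher and 1 that was lower among 12, with a median of 0.03. Pla2g7, which cleaves platelet-activating factor and oxidised phospholipids into lyso forms, was at 43.5 FPKM in control against 157 in cKO (log2 1.83). Lcat, which leaves lysophosphatidylcholine when it esterifies cholesterol, was at 57.1 and 132 FPKM (log2 1.19). Gdpd1, a lysophospholipase D inside the cell, was at 11.2 and 4.60 FPKM (log2 -1.13). Of 13 acyltransferases that turn lysophospholipids back into phospholipids, 1 was higher, Agpat2, at 4.23 and 10.6 FPKM (log2 1.15), and the median was 0.08.

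Among other lysophospholipid receptors and carriers, Mfsd2a, which carries lysophosphatidylcholine across the blood-brain barrier, was lower, at 40.4 FPKM in control against 15.2 in cKO (log2 -1.35). The second tested gene, the microglial receptor Gpr34, did not reach 2-fold (log2 -0.38). None of 16 G proteins and effectors that act downstream of LPA and S1P receptors was counted, with differences from -0.89 to 0.80 and a median of 0.02. Rhoa was at 229 and 223 FPKM (log2 -0.04) and Gnai2 at 197 and 280 (log2 0.50).

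**Figure D3:**
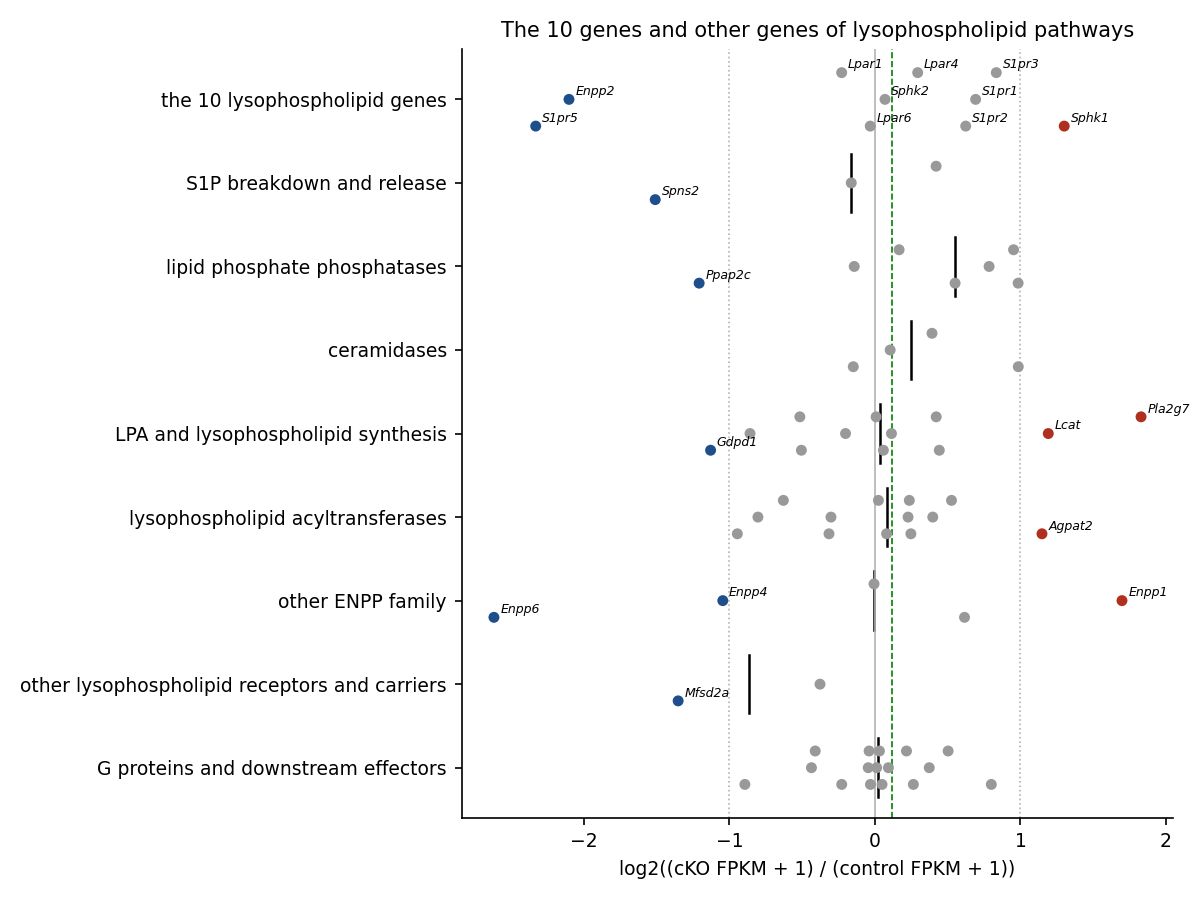
Log2 difference (cKO over control, each FPKM plus 1) of the 10 genes and of 8 further lists of lysophospholipid genes, 1 point per tested gene, in blue if counted lower, red if counted higher and grey otherwise. Black bars mark list medians, the dashed green line the median of all genes tested (0.12) and dotted lines 2-fold. Enpp2, S1pr5 and Enpp6 lie lowest, below -2, and Pla2g7 lies highest at 1.83.

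The values come from whole nerve, in which fewer cells of a type and less RNA per cell cannot be told apart. Beside Enpp2 (log2 -2.10) and S1pr5 (log2 -2.33), all 7 oligodendrocyte markers read were lower, from -2.68 for Mog to -2.20 for Cldn11, and their summed level was 6547 FPKM in control and 1163 FPKM in cKO. S1pr5 lay within that range, Enpp2 just above it, and Lpar1, with a difference of -0.23, far from it. Beside it, precursor markers ran from -2.50 for Gpr17 to 0.13 for Pdgfra, with 1 of 4 lower and a summed level of 312 and 139 FPKM. The drop of that sum was mainly that of Gpr17, at 215 and 37.2 FPKM, whose difference lay within the range of the oligodendrocyte markers. Cspg4 also had a lower value in cKO, at 9.93 and 6.93 FPKM, while Pdgfra had 35.4 and 38.8 and Ptprz1 51.8 and 56.4. Pdgfra also stands in the list of meningeal fibroblast markers below and Cspg4 in that of mural cells.

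Beside S1pr3 (log2 0.83) and S1pr1 (log2 0.69), 2 of 7 tested astrocyte markers were higher, with a median of 0.74, a range of -0.24 to 1.39 and a summed level of 1076 FPKM in control against 1823 in cKO. Gfap had no usable cKO value and was left out. None of 8 endothelial markers was counted, with differences from 0.05 to 0.85, a median of 0.36 and sums of 145 and 184 FPKM. Of 7 mural cell markers 1 was higher, with a median of 0.64 and sums of 261 and 459 FPKM.

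Sphk1 (log2 1.30) lay within the range of the astrocyte markers above (-0.24 to 1.39). It also lay within the ranges of the meningeal fibroblast markers (0.13 to 1.63) and the red blood cell genes (0.51 to 1.78). Meningeal fibroblast markers were mostly higher (6 of 8), with a median of 1.28 and sums of 1848 and 4311 FPKM. None of 8 microglia markers was counted (median 0.54, sums of 236 and 368 FPKM). Of 3 red blood cell genes 2 were higher (median 1.44, sums of 85.3 and 265 FPKM), and Hba-a1 among them shares reads with a near-identical copy. Of 6 neuron markers 1 was higher (median 0.22, sums of 35.5 and 49.2 FPKM). The part of any of these cell types in the differences of the 10 genes was not tested.

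**Figure D4:**
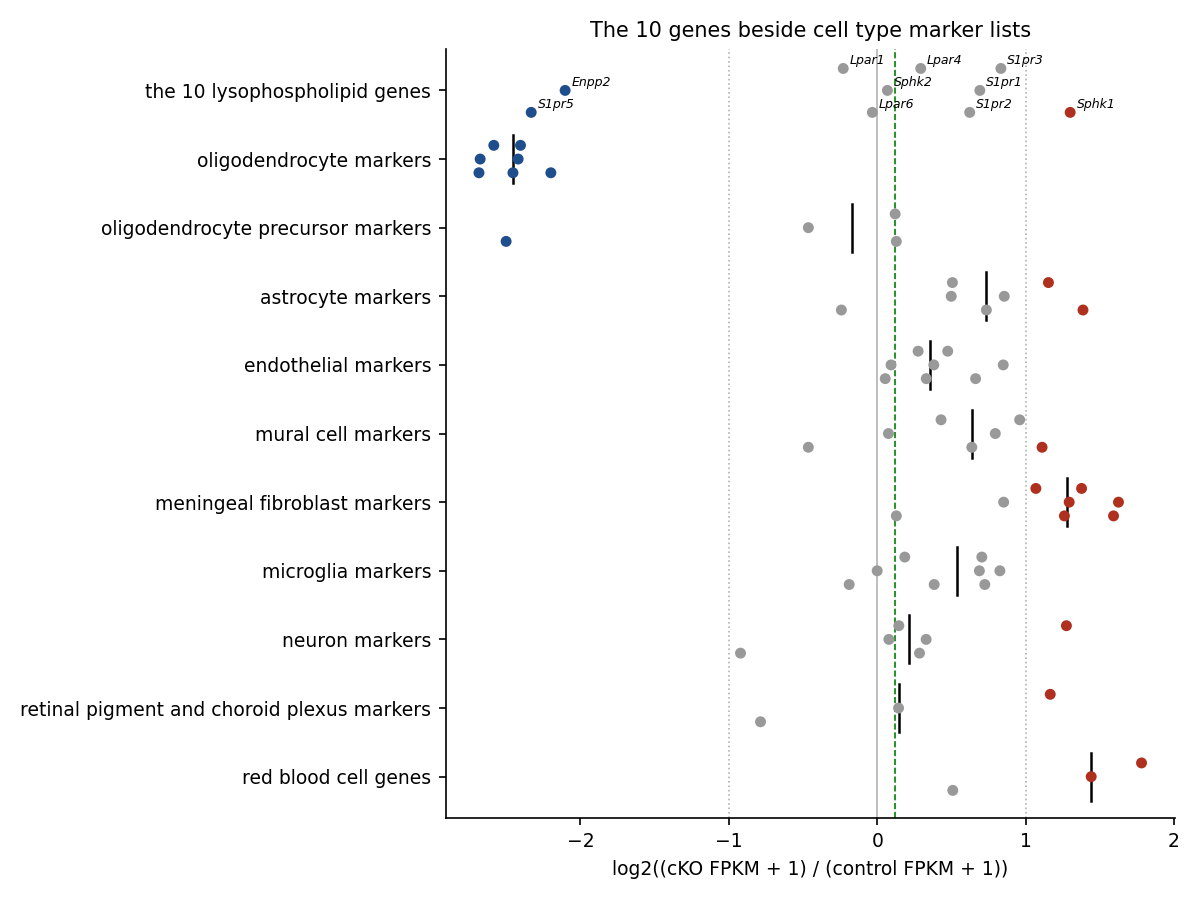
Log2 difference (cKO over control, each FPKM plus 1) of the 10 genes and of cell type marker lists, 1 point per tested gene, coloured as counted lower (blue), higher (red) or neither (grey). Black bars are list medians, the dashed green line the median of all genes tested and dotted lines 2-fold. S1pr5 lies within the range of the oligodendrocyte markers (-2.68 to -2.20) and Enpp2 just above it. S1pr1, S1pr2 and S1pr3 lie within the ranges of the astrocyte (-0.24 to 1.39), endothelial (0.05 to 0.85), mural (-0.46 to 1.11) and fibroblast (0.13 to 1.63) markers alike. The ranges of the neuron (-0.92 to 1.28), red blood cell (0.51 to 1.78) and pigment and choroid plexus (-0.79 to 1.17) lists hold them too. That of the microglia markers (-0.189 to 0.827) holds S1pr1 and S1pr2, with S1pr3 just above it.

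The choice of pseudocount and scaling moved the 10 differences less than it would take to change the direction of any but Sphk2. The call was lost for Sphk1 alone, with equal sums of FPKM, and the calls of Enpp2 and S1pr5 held under each of the 8 settings plotted. These 8 include the deposited scale itself and a choice of entry that could not move genes with 1 entry each.

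**Figure D5:**
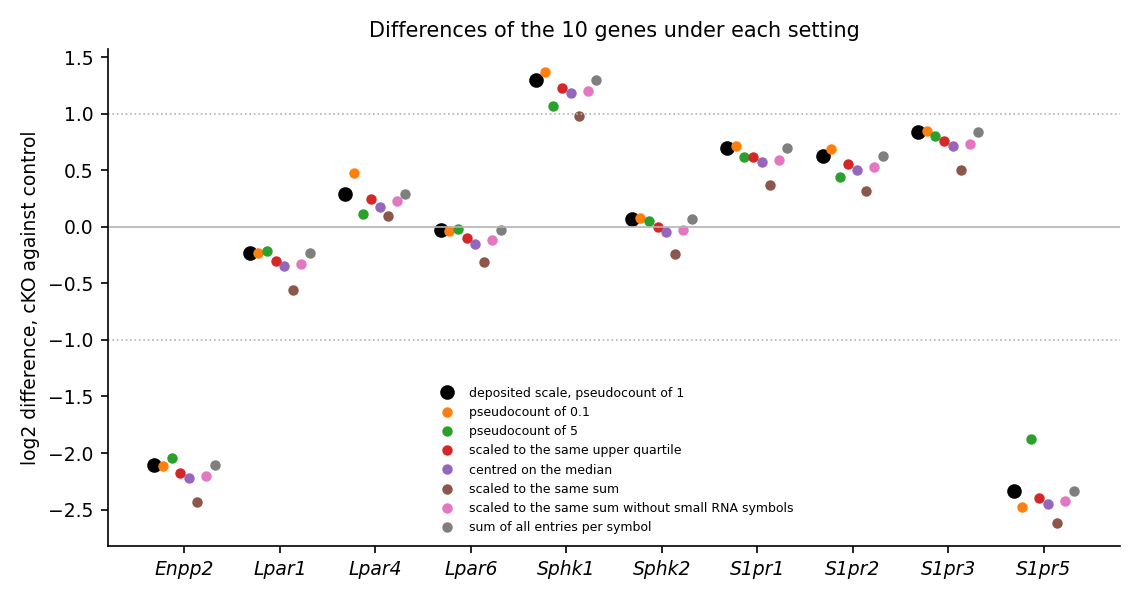
Log2 difference of each of the 10 genes under 8 settings of pseudocount, scaling and entry choice, with the deposited scale in black and dotted lines at 2-fold. The entry choice could not move any of these genes, as each had 1 entry. Enpp2 and S1pr5 stay at -1.88 or below in each, Sphk1 ranges from 0.98 to 1.37, and the sign of Sphk2 varies.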

How the data were processed

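The authors deposited FPKM per gene with interval bounds and a status, per the file headers. The bounds are in the same unit, with 1 other number, a placeholder for a Gfap bound in the cKO library. The submitters' processing notes name CASAVA, TopHat, Cufflinks and the mm9 build. Versions, annotation and read numbers are not known from the sources used here, so depth is unknown. Both tables held 24460 entries, and a symbol with several was represented by that of highest summed FPKM. Genes with OK status in both and FPKM of at least 1 in either were compared on log2(FPKM + 1) without scaling, in Python 3.11.15 with pandas 2.3.3. The rule was first run on simulated data with changes planted well past 2-fold and little noise. That run checks the code and not the error in these libraries. FPKM summed to 441867 (control) and 557861 (cKO). Starts are counted from 1. The genes and lists were chosen with earlier results of these data known. All 10 genes are named; of other pathway lists, each gene counted and otherwise the 2 most abundant; of markers, only some that the rule selects. Genes named beyond these (Sgpl1, Sgpp1, Ppap2a, Ppap2b, Acer2, Gpr34, Lpar2, Lpar3, Lpar5, S1pr4, low markers, the ends of marker ranges) were chosen with values seen. Older symbols such as Ppap2c (Plpp2) are as in the files. Of the oligodendrocyte marker list, 1 gene is not reported here.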

Additional observations from a re-analysis of the deposited data

How the results depend on the processing

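No paired analysis was possible because the groups have 1 library each, and for the same reason no library could be left out. Depth is unknown, and the deposited intervals hold no variation between animals. Enpp2 and S1pr5 were counted lower under each setting of pseudocount and scaling tried, and the number of the 10 genes counted lower was 2 in each. The number counted higher was 0 with equal sums of FPKM, where Sphk1 was at 0.98 (log2), and 4 with a 1.5-fold limit. The log2 difference of Sphk2 was -0.00316 with equal upper quartiles, -0.0510 when centred on the median, -0.237 with equal sums and -0.0258 with equal sums without small RNAs, a setting added after the data were seen. Of the other pathway genes, 3 were lower with a pseudocount of 5, 10 with equal sums and 11 at 1.5-fold, while 9 were higher with a pseudocount of 0.1, 2 with equal sums and 11 at 1.5-fold. Of all genes tested, 638 were lower and 669 higher on the deposited scale, against 960 and 215 with equal sums, where the median of all genes was -0.16. At 1.5-fold, 1253 of all genes were lower (8.85%) and 2262 higher (16.0%). With a pseudocount of 5, 339 of all genes were lower, and with a pseudocount of 0.1, 1156 were higher. Some list medians turned below 0. With equal sums they were -0.0505 for ceramidases, -0.277 for lysophospholipid synthesis, -0.184 for acyltransferases, -0.291 for G proteins and effectors, -0.0396 for neuron markers and -0.0878 for pigment and choroid plexus markers. With equal upper quartiles they were -0.0400 for lysophospholipid synthesis and -0.0513 for G proteins and effectors. Centring on the median gave -0.0872 for lysophospholipid synthesis, -0.0403 for acyltransferases and -0.0989 for G proteins and effectors. Equal sums without small RNAs gave -0.0629 for lysophospholipid synthesis, -0.00280 for acyltransferases and -0.0741 for G proteins and effectors.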

Other observations

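S1pr2 and S1pr5 lie 266 kilobases apart on chromosome 9 (mm9), with log2 differences of 0.62 and -2.33. Paired values below are given for the control library first and the cKO library second. The 8 tested genes that lie wholly between them, leaving out small RNAs, included 0 that were lower and 0 that were higher, and their median log2 difference was 0.07. They ran from -0.09 for Raver1 to 0.72 for Icam1, an adhesion molecule of endothelium and reactive glia, at 6.36 and 11.2 FPKM. Keap1, the tested gene nearest to S1pr5 on that side, was at 13.0 and 13.9 FPKM (log2 0.09). The S1pr5 difference was thus not shared by the genes on its S1pr2 side.

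Neighbours of the ENPP family differed too. Enpp4 and Enpp5 lie 9.75 kilobases apart on chromosome 17. Enpp4 was lower, with a log2 difference of -1.05, and Enpp5 was at 22.5 and 22.4 FPKM (log2 -0.01). These neighbourhoods were picked after the values were seen and carry no test.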
